A study of Mus musculus with 64 samples.

Results

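The mouse genes of the PER and CRY repressors and of proteins that act on them were followed in fat over the day. The set is defined by gene name and not by a threshold on a measured value, and holds 9 genes: *Per1*, *Per2*, *Per3*, *Cry1*, *Cry2*, the casein kinase genes *Csnk1d* and *Csnk1e*, the F-box gene *Fbxl21* and *Timeless*. All 9 were found by Ensembl identifier among the 52636 genes of the count table, and all 9 were among the 20249 genes kept for testing. Male WT and FANKO mice gave RNA from a brown depot (brown adipose tissue, BAT) and a white depot (epididymal fat, eWAT), and were aged 2 to 4 months, with 4 samples in each of 16 groups of depot, genotype and time point. Both genotypes came from a line that carries the *Nampt* tm1Jtree allele, in which exon 3 of *Nampt* lies between loxP sites. FANKO mice also carried Adiponectin-Cre, which acts in adipocytes and leaves *Nampt* in the other cells of a depot, and WT mice were littermates without Cre. Time is given as zeitgeber time (ZT, hours after lights on), and tissue was taken at ZT 6 and ZT 10 in the light phase and at ZT 18 and ZT 22 in the dark phase.

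In the circadian clock, CLOCK and BMAL1 switch on the *Per* and *Cry* genes, and the PER and CRY proteins later enter the nucleus and repress CLOCK and BMAL1. Casein kinases 1 delta and epsilon phosphorylate PER proteins and set how long they last, and the F-box protein FBXL21 places ubiquitin on CRY proteins. TIMELESS was named after a fly clock protein, and in mammals it works with TIPIN at DNA replication forks. The comparisons address whether the daily course and the level of these transcripts differ between fat depots and between mice with and without *Nampt* in their adipocytes.

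Each sample held between 6117343 and 30544847 counts, with a median of 15826651. They were scaled by the TMM method and are given as CPM, the counts scaled to a common library size, and levels of different genes are compared only as RPKM, the CPM per kilobase of exon. *Nampt* itself was lower in every FANKO BAT sample (109 to 186 CPM) than in any WT BAT sample (479 to 1454 CPM). In eWAT the ranges overlapped (101 to 131 CPM in FANKO and 112 to 310 CPM in WT). The eWAT means were alike at ZT 6 (119 CPM in WT and 117 CPM in FANKO mice) and far apart at ZT 18 (250 and 116 CPM). Adipocyte markers were abundant in all groups, led by *Fabp4*, and brown fat markers set BAT apart, with a median summed level of 7455 CPM in WT BAT and 18.3 CPM in WT eWAT. The FANKO depots also differed in cell markers: the summed level of 7 macrophage genes was 93.4 to 176 CPM in WT BAT and 472 to 1155 CPM in FANKO BAT, that of 6 lymphocyte genes was 1.78 to 5.01 and 29.8 to 110 CPM, and that of 7 adipocyte genes had a median of 14004 and 7598 CPM. Of these, 6 of 7 macrophage genes rose in FANKO BAT and 1 fell, 6 of 6 lymphocyte genes rose and 7 of 7 adipocyte genes fell (33.1% of all genes rose and 33.9% fell), and none of them was at 0 in all samples of a combination. Stromal progenitor genes moved in both depots: 6 of 6 rose in FANKO BAT, with summed levels of 411 to 1184 CPM in WT and 1203 to 2189 CPM in FANKO mice, and 6 of 6 fell in FANKO eWAT, from 2300 to 4139 CPM down to 1363 to 1991 CPM (27.6% of all genes rose in eWAT and 22.8% fell). Of 5 white adipocyte genes, 4 fell and 1 rose in FANKO eWAT, with summed levels of 1709 to 3760 CPM in WT and 1149 to 2001 CPM in FANKO mice. Of 7 brown fat genes, 4 fell and 0 rose in FANKO BAT (median sum 2620 CPM), and 3 rose and 1 fell in FANKO eWAT (57.8 CPM). Sums of 7 skeletal muscle genes ran from 0.845 to 446 CPM in WT BAT. In FANKO BAT 6 of these fell at ZT 10 (4539 of all 20249 genes, median difference -4.37). At ZT 22 1 rose (4574 of all genes, median 3.72). In bulk tissue, fewer cells of a type and less RNA per cell cannot be told apart. One pair of libraries stood apart on *Per1* and *Per2*: replicate 4 of WT mice at ZT 18 was high in both in BAT and in eWAT, and results that rest on these libraries are given with and without them. Over all genes, the lowest median correlation with its group was that of replicate 2 of WT eWAT at ZT 6 (r = 0.965).

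Rhythm was tested for the cosine and sine of a 24 h cycle together, and a gene was called at a false discovery rate (FDR) below 0.01 over all 20249 genes. In WT BAT 7 of the 9 genes were rhythmic, where 13.9% of all genes tested were called. The others were *Fbxl21* (adjusted p = 0.48) and *Timeless* (adjusted p = 0.916). In FANKO BAT 4 of 9 were rhythmic (2.84% of all genes), in WT eWAT 5 of 9 (9.38%) and in FANKO eWAT 3 of 9 (6.77%). *Per2*, *Per3* and *Cry1* passed in all 4 combinations of depot and genotype. *Per1* passed in 3 and had an adjusted p of 0.0124 in FANKO eWAT. *Cry2*, *Csnk1d* and *Csnk1e* passed in WT BAT alone, and *Fbxl21* in WT eWAT alone. A gene past the threshold in one genotype and not in the other is not thereby shown to differ, and the direct test of the difference in rhythm is given for each gene below.

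**Figure D1:**
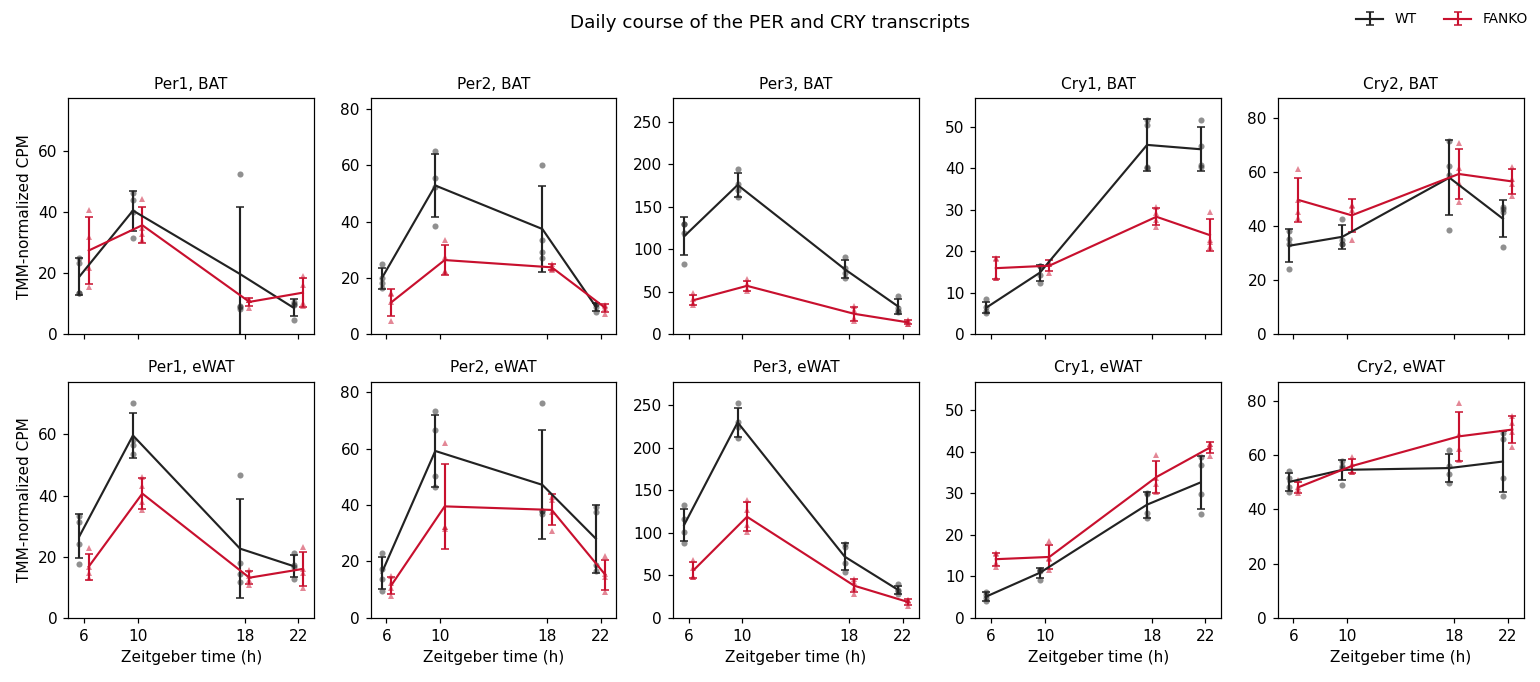
Daily course of *Per1*, *Per2*, *Per3*, *Cry1* and *Cry2* in BAT (upper row) and eWAT (lower row), in TMM-normalized CPM against zeitgeber time in hours. Small symbols are single samples (circles WT, triangles FANKO) and lines join the means of 4 samples with SD bars, the bar of *Per1* in WT BAT at ZT 18 being cut off at 0. The *Per3* curves of FANKO mice lie below those of WT mice in both depots, and the *Cry1* curves of WT and FANKO BAT cross between ZT 10 and ZT 18.

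Promoter letters are shown for *Per1*, *Per3* and *Cry1*, whose daily swings were large and which were highest early (*Per1* and *Per3*, ZT 10) or late (*Cry1*, in the dark phase), and for *Timeless*, which was not called rhythmic but had the largest rise in FANKO BAT. Windows from 250 bases before to 50 bases after a transcription start were read from RefSeq on GRCm38.p6, which gave 11 windows for 7 of the 9 genes; *Per2* and *Csnk1d* were not among them. Both strands were searched for the E-box CACGTG bound by CLOCK and BMAL1, its variant CACGTT, the D-box TTATGNAA bound by DBP and E4BP4, the cAMP response element TGACGTCA and the nuclear receptor half-site AGGTCA. These letters occurred in 7.15%, 4.68%, 3.38%, 1.79% and 16.3% of the 32851 windows of that length, and no match below overlapped another. The matches are in capitals.
*Per1* (chr11:69098699-69098998, + strand): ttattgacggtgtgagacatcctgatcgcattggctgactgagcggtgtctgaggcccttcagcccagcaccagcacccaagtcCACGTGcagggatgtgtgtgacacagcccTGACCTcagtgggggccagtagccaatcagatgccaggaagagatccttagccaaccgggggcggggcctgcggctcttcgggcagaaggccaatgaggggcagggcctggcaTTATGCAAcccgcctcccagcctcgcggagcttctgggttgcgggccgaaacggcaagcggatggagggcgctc
*Per3* (chr4:151044616-151044915, - strand): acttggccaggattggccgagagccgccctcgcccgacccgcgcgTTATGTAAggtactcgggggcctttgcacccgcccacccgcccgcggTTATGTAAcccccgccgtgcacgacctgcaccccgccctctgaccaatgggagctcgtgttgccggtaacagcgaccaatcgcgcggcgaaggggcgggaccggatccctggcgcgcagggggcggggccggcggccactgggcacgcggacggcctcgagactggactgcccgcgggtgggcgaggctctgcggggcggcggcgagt
*Cry1* (chr10:85185005-85185304, - strand): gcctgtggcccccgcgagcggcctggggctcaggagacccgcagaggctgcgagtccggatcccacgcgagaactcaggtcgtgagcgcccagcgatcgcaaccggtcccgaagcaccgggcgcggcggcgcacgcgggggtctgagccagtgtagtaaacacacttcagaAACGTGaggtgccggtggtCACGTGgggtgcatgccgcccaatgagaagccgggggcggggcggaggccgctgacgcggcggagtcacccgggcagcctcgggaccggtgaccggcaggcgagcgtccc
*Timeless* (chr10:128237816-128238115, + strand): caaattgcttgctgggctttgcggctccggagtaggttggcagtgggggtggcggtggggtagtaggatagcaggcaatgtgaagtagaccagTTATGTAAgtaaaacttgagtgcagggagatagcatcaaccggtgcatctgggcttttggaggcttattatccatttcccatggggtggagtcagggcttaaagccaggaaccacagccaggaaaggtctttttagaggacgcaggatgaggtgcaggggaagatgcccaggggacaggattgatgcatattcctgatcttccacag

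The *Per1* window shown is the first of 2 and held an E-box that begins 166 bases before the start, a half-site at 137 bases and a D-box at 24 bases. The second window of *Per1* held none of the 5 motifs. The *Per3* window held 2 D-boxes, 205 and 158 bases before the start, and no E-box. The *Cry1* window held a CACGTT match 79 bases and an E-box 60 bases before the start. *Cry2* had 1 CACGTT match at 166 bases, and *Timeless*, which was not rhythmic in any of the 4 combinations, had 1 D-box at 157 bases. The windows of *Fbxl21* and *Csnk1e* held none. Those of *Timeless*, *Per1* and *Csnk1e* lie within the annotated genes, so their RefSeq starts are internal to the gene span. The *Timeless* window begins at 128237816, where the gene begins at 128232065. The *Per1* window shown begins at 69098699, where the gene begins at 69095217. A match is a run of letters and not a measured binding site.

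*Per3* was the repressor gene with the largest fall in FANKO mice. *Per3* (ENSMUSG00000028957) is found at 151003652 to 151044665 on the reverse strand of chromosome 4 (GRCm38), within the span of *Camta1*, with which it shares no exonic base in the annotation. In WT BAT the 4 samples held 130, 129, 119 and 82.8 CPM at ZT 6, 162, 177, 194 and 170 at ZT 10, 78.4, 71.8, 66.0 and 90.8 at ZT 18, and 26.7, 27.4, 31.4 and 45.6 at ZT 22. In FANKO BAT they held 34.2, 48.2, 41.7 and 37.1 CPM at ZT 6, 58.8, 51.3, 53.4 and 65.0 at ZT 10, 16.4, 28.5, 33.4 and 18.8 at ZT 18, and 12.6, 12.1, 15.3 and 16.9 at ZT 22. Every FANKO BAT sample lay below every WT BAT sample of its time point. The FANKO mean was 0.325 times the WT mean at ZT 10 and 0.443 times at ZT 22 as geometric means, and the mean level over the day fell by 1.52 ± 0.09 on the log2 scale (SE, adjusted p = 6.29e-22).

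In WT eWAT *Per3* was 116, 132, 101 and 88.4 CPM at ZT 6, 231, 253, 225 and 211 at ZT 10, 83.0, 64.6, 53.6 and 87.0 at ZT 18, and 32.8, 28.0, 31.3 and 39.3 at ZT 22. In FANKO eWAT the values were 48.5, 68.6, 48.4 and 58.5 CPM at ZT 6, 138, 127, 101 and 110 at ZT 10, 28.1, 42.5, 46.2 and 35.0 at ZT 18, and 13.4, 19.6, 21.6 and 20.8 at ZT 22. Again no FANKO sample reached the WT range of its time point. The mean level fell by 0.91 ± 0.09 (adjusted p = 9.23e-13), and each of the 8 time points of both depots passed on its own, from -1.67 ± 0.19 in BAT at ZT 18 to -0.79 ± 0.19 in eWAT at ZT 22 (adjusted p = 2.89e-11 and 0.000816). The call at ZT 22 in eWAT was lost without replicate 1 (adjusted p = 0.0145). The fall was larger in BAT than in eWAT by 0.61 ± 0.13 (adjusted p = 4.16e-05), although with library size alone the difference turned to -0.22 (adjusted p = 0.126) against a median over all genes of -0.88. In that test of depot by genotype 64.3% of all genes passed (32.1% higher and 32.2% lower) and 3 of the 9 genes did, 2 higher and 1 lower. The falls of stromal progenitor and white adipocyte genes in FANKO eWAT stood beside that of *Per3*. In FANKO BAT the median difference was -0.86 over 7 adipocyte genes, 3.17 over 7 macrophage genes and 4.43 over 6 lymphocyte genes. The part of these cell types in the level of *Per3* was not tested in either depot.

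The shape of the *Per3* course changed little beside its level. It was highest at ZT 10 and lowest at ZT 22 in all 4 combinations, with an amplitude (highest minus lowest time-point mean of log2 CPM) of 2.45 ± 0.19 in WT and 2.00 ± 0.14 in FANKO BAT, and of 2.81 ± 0.11 and 2.66 ± 0.19 in eWAT (SE). The test of the difference in rhythm gave adjusted p = 0.646 in BAT and 0.951 in eWAT. The 3 genes with the most similar course over the 16 time-point means, each centred on its depot and genotype, were *Zranb1* (Pearson r = 0.957), *Nr1d2* (0.952) and *Bvht* (0.941); these means come from the same libraries.

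*Per2* (ENSMUSG00000055866, chromosome 1, 91415982 to 91459324, reverse strand) was lower in FANKO mice in both depots. Its mean level fell by 0.64 ± 0.16 in BAT (adjusted p = 0.000298) and by 0.58 ± 0.15 in eWAT (adjusted p = 0.000835). At ZT 10 the WT BAT samples held 65.0, 55.6, 52.3 and 38.3 CPM and the FANKO BAT samples 33.3, 22.1, 22.5 and 27.5 CPM, with no overlap. This was the only time point at which *Per2* passed in BAT (difference -0.99 ± 0.28, adjusted p = 0.00237). FANKO samples also lay below all WT samples in BAT at ZT 6 and ZT 18, where the edgeR test did not pass (adjusted p = 0.0196 and 0.0517). In eWAT *Per2* passed at no time point, with an adjusted p from 0.0213 to 0.454. At ZT 22 the BAT samples of both genotypes were alike in range, with 7.77 to 10.8 CPM in WT and 7.26 to 10.6 CPM in FANKO. The genotype difference in mean level was 0.06 ± 0.22 higher in eWAT than in BAT, which did not pass (interaction test, adjusted p = 0.83).

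In BAT the amplitude of *Per2* was 2.40 ± 0.19 for WT and 1.47 ± 0.18 for FANKO mice, and in eWAT 1.93 ± 0.31 and 1.75 ± 0.22. Rhythm in FANKO BAT (adjusted p = 0.000262) was lost without replicate 1 (0.0108). The direct test of rhythm between genotypes gave adjusted p = 0.453 in BAT and 0.918 in eWAT. In eWAT the sign of the amplitude difference depended on the measure, -0.17 from the time-point means and 0.46 from the fitted cosine. The call at ZT 10 in BAT was lost without replicate 2 or 3 (adjusted p = 0.0227 and 0.0419) and, as was the call on the mean level in BAT, with library size as the sole scaling (adjusted p = 0.225 and 0.725). The genes with the most similar course were *Ccny* (r = 0.936), *Met* (0.932) and *Pcmtd1* (0.917) over the same 16 means.

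*Per1* (ENSMUSG00000020893, chromosome 11, 69095217 to 69109960, forward strand), a *Per* gene that also answers quickly to glucocorticoid and cAMP signals, did not differ in mean level by the threshold. The difference was 0.06 ± 0.20 in BAT (adjusted p = 0.812) and -0.50 ± 0.20 in eWAT (adjusted p = 0.0235). At ZT 10 in eWAT the WT samples held 70.3, 56.4, 58.2 and 53.7 CPM and the FANKO samples 46.2, 43.3, 35.2 and 38.0 CPM, without overlap, but the difference did not pass the test over all genes (-0.55 ± 0.35, adjusted p = 0.236). *Per1* was highest at ZT 10 in all 4 combinations, with amplitudes of 2.26 ± 0.31 and 1.73 ± 0.14 in WT and FANKO BAT and 1.83 ± 0.17 and 1.63 ± 0.14 in eWAT. Rhythms were not told apart between genotypes (adjusted p = 0.187 in BAT and 0.918 in eWAT). Its rhythm in FANKO BAT (adjusted p = 0.00328) was lost without replicate 1, 2 or 3, with the highest adjusted p at 0.0896, and its rhythm in WT eWAT (0.000722) likewise (0.0139 to 0.0252).

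At ZT 18 *Per1* in WT BAT was 9.16, 8.45, 8.84 and 52.5 CPM, and in WT eWAT 14.3, 18.1, 11.6 and 46.6 CPM, the last value in each being that of replicate 4. *Per2* in the same libraries was 33.4, 27.0, 29.0 and 60.0 CPM in BAT and 36.7, 37.9, 37.9 and 76.2 CPM in eWAT. *Per3* was 90.8 CPM in the BAT library of that number, against 66.0 to 78.4 in the other 3, and *Nampt* was 1454 CPM against 763 to 883 CPM. The labels do not say that libraries with the same number came from one mouse. Without both libraries *Per1* remained rhythmic in WT BAT (adjusted p = 2.72e-07) and WT eWAT (6.73e-06), its rhythm in FANKO eWAT passed (0.00109), and *Per2* still fell in the mean, by 0.54 in BAT and 0.54 in eWAT (adjusted p = 0.0013 and 0.00127).

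With TMM scaling *Cry1* changed its daily course in BAT, while its mean level did not differ by the threshold. *Cry1* (ENSMUSG00000020038), a strong repressor of CLOCK and BMAL1, lies on chromosome 10 from 85131700 to 85185064, on the reverse strand. In WT BAT the samples held 8.41, 6.66, 5.23 and 5.58 CPM at ZT 6, 14.3, 16.5, 16.4 and 12.4 at ZT 10, 40.0, 50.5, 40.3 and 51.7 at ZT 18, and 51.8, 45.5, 40.8 and 40.3 at ZT 22. In FANKO BAT they held 13.5, 18.1, 18.5 and 13.7 CPM at ZT 6, 17.0, 17.1, 17.5 and 14.7 at ZT 10, 30.7, 27.5, 29.2 and 25.9 at ZT 18, and 22.3, 29.5, 21.1 and 22.7 at ZT 22. FANKO samples were all above the WT samples at ZT 6, overlapped them at ZT 10, and were all below them at ZT 18 and ZT 22.

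The difference of *Cry1* in BAT was 1.28 ± 0.15 at ZT 6 (adjusted p = 2.49e-10), 0.14 ± 0.14 at ZT 10 (0.423), -0.69 ± 0.13 at ZT 18 (1.9e-05) and -0.90 ± 0.14 at ZT 22 (1.29e-07), so that the mean over the day was close to that of WT mice (-0.07 ± 0.11, adjusted p = 0.57). The amplitude was 2.81 ± 0.18 in WT and 0.84 ± 0.13 in FANKO BAT. *Cry1* was the only one of the 9 genes whose rhythm was called different between genotypes in BAT (adjusted p = 1.09e-05), where 2.76% of all genes were called. That call held in each alternative fit that was run, whereas the rhythm within FANKO BAT (adjusted p = 0.004) was lost without replicate 1, 2 or 4 (adjusted p = 0.0526, 0.0481 and 0.0522) and with library size as the sole scaling (0.0182). The falls at ZT 18 and ZT 22 were also lost with that scaling, at -0.08 and -0.31 (adjusted p = 0.665 and 0.0946), against a median over all genes of 0.58 and 0.59. Adipocyte, macrophage and lymphocyte genes differed between genotypes in the same samples, and their part in the course of *Cry1* was not tested.

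In WT eWAT *Cry1* was 5.63, 6.33, 4.02 and 4.68 CPM at ZT 6, 11.4, 11.6, 11.4 and 9.09 at ZT 10, 23.9, 30.0, 30.0 and 25.2 at ZT 18, and 38.8, 29.9, 36.8 and 25.1 at ZT 22. In FANKO eWAT it was 13.3, 12.4, 15.5 and 15.4 CPM at ZT 6, 18.6, 14.4, 14.2 and 11.6 at ZT 10, 32.3, 39.3, 30.3 and 33.8 at ZT 18, and 41.2, 41.9, 39.1 and 42.0 at ZT 22. FANKO values were the higher at ZT 6, ZT 18 and ZT 22 without overlap, and the largest gap was at ZT 6. The mean level rose by 0.59 ± 0.11 (adjusted p = 2.84e-06), and of the time points ZT 6 passed (1.43 ± 0.15, adjusted p = 6.79e-11) while ZT 10, ZT 18 and ZT 22 did not (adjusted p = 0.0113, 0.0775 and 0.0553). Stromal progenitor and white adipocyte genes fell in the same samples, and their part in the level of *Cry1* was not tested.

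In eWAT *Cry1* had an amplitude of 2.63 ± 0.20 (WT) and 1.54 ± 0.08 (FANKO), and the rhythms were not told apart by the cosine test (adjusted p = 0.129). With time point as a factor in place of the cosine they were (adjusted p = 0.000789). In eWAT none of the 9 genes was called by edgeR for a difference in rhythm (0 of 9, with 1.15% of all genes called). DESeq2 and limma-voom also called 0 (419 and 252 of all 20249 genes). An unadjusted p under 0.05 was found by edgeR for 2, and the share of all genes under that value was not counted. The genotype difference in mean level was higher in eWAT than in BAT by 0.66 ± 0.15 (adjusted p = 0.000102), and the test of whether the change in rhythm differed between depots gave adjusted p = 0.147. With library size alone the interaction of *Cry1* turned to -0.18 and that of *Per3* to -0.22, where the median of all genes was -0.88. The courses most like that of *Cry1* included those of *Phlda3* (r = 0.979) and *Mbnl2* (0.978).

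*Cry2* (ENSMUSG00000068742, chromosome 2, 92403646 to 92434043, reverse strand) encodes the second mammalian cryptochrome and had a shallower course. In WT BAT it was 38.0, 33.3, 35.4 and 24.1 CPM at ZT 6 and 62.3, 59.0, 71.5 and 38.5 CPM at ZT 18, and in FANKO BAT 42.9, 61.0, 49.4 and 45.2 CPM at ZT 6 and 56.0, 61.5, 70.5 and 48.8 CPM at ZT 18. At ZT 6 FANKO samples were all higher, and at ZT 18 the genotypes overlapped. The difference was 0.60 ± 0.14 at ZT 6 (adjusted p = 0.000236), which was lost without replicate 2 (0.0121), and 0.03 ± 0.14 at ZT 18 (0.89). The mean level in BAT rose by 0.33 ± 0.07 (adjusted p = 4.26e-05), and in eWAT it differed by 0.13 ± 0.07 (adjusted p = 0.1). An antisense gene, D930015M05Rik, covers 4.67% of the exonic bases of *Cry2*, and whether the counting used strand is not given in the sources used here.

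The amplitude of *Cry2* was 0.81 ± 0.24 in WT and 0.43 ± 0.15 in FANKO BAT, and 0.18 ± 0.15 in WT and 0.53 ± 0.06 in FANKO eWAT. It was thus the smaller in FANKO BAT and the larger in FANKO eWAT, but neither difference of rhythm passed (adjusted p = 0.138 and 0.497), nor did the difference between them (adjusted p = 0.0925). Of the 9 genes edgeR called 0 for a change in rhythm that differed between depots (2.09% of all genes). DESeq2 and limma-voom also called 0 (729 and 420 of all 20249 genes). An unadjusted p under 0.05 was found by edgeR for 4, and the share of all genes under that value was not counted. Rhythm in FANKO eWAT had an adjusted p of 0.0114 and passed without the WT libraries of replicate 4 at ZT 18 (0.00589).

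**Figure D2:**
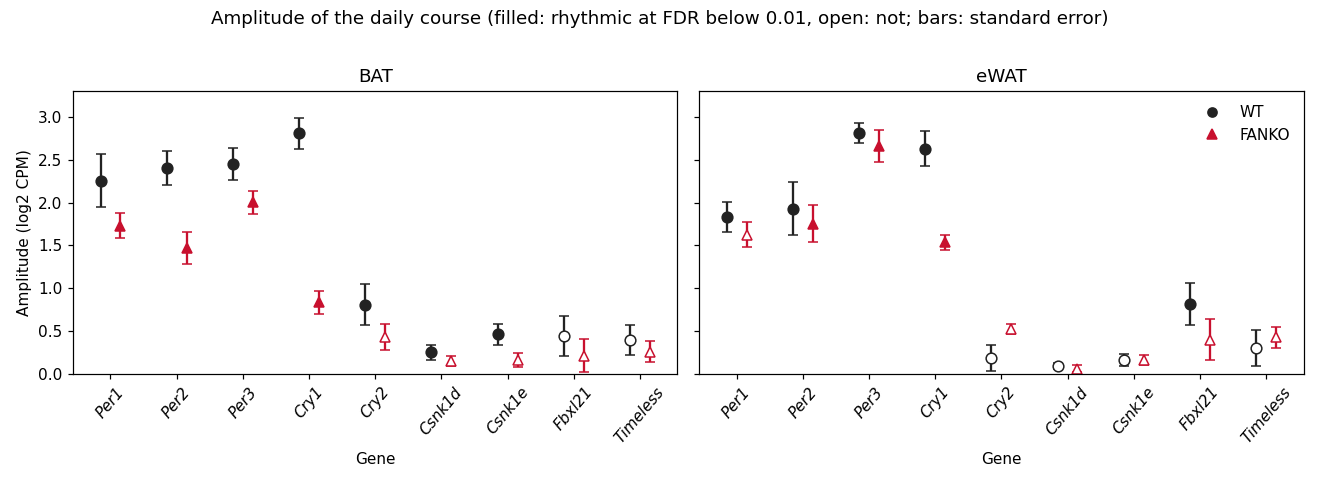
Amplitude of the daily course of the 9 genes in BAT (left) and eWAT (right), as the gap in log2 CPM from the lowest to the highest of 4 time-point means, with standard errors from 4 samples a time point (circles WT, triangles FANKO; filled symbols were rhythmic). In BAT all 9 amplitudes from time-point means are lower in FANKO mice (8 by the fitted cosine, all but *Timeless*), and the widest gap is that of *Cry1*, from 2.81 to 0.84.

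Over the 9 genes the amplitude was lower in FANKO than in WT mice for 9 in BAT and for 6 in eWAT, and by the fitted cosine for 8 in BAT, all but *Timeless* (0.31), and for 5 in eWAT. Of all genes tested, 64.2% had a lower amplitude in FANKO BAT and 54.7% in FANKO eWAT (60.1% and 51.1% by the fitted cosine). In BAT the differences of *Cry1* (-1.97 ± 0.23) and *Per2* (-0.93 ± 0.27) were more than 3 times their standard error, and in eWAT that of *Cry1* was (-1.10 ± 0.22), while each of the others was less than 3 times its standard error. An amplitude is the highest of 4 means less the lowest, so noise alone raises it above 0, and it was given no test of its own. Its standard error does not allow for the choice of the highest and lowest mean. The direct test of rhythm between genotypes called *Cry1* in BAT (adjusted p = 1.09e-05). That test did not call *Per2* in BAT (0.453) or *Cry1* in eWAT (0.129).

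The kinase genes had shallow courses and small differences between genotypes. *Csnk1d* (ENSMUSG00000025162, chromosome 11, 120961749 to 120991330, reverse strand) had the highest mean level of the 9 genes in each combination, with 14.5 ± 1.60 RPKM in BAT and 15.5 ± 0.585 RPKM in eWAT of WT mice, against 16.4 ± 1.30 and 17.6 ± 0.716 RPKM in the same depots of FANKO mice (SD over 16 samples of all time points). Its mean level rose in FANKO mice by 0.18 ± 0.03 in BAT (adjusted p = 5.25e-06) and by 0.18 ± 0.03 in eWAT (adjusted p = 6.66e-06), where the value with library size alone was -0.06 (adjusted p = 0.338) and the median of all genes -0.27. In eWAT at ZT 22 the WT samples held 77.6, 75.1, 76.0 and 74.6 CPM and the FANKO samples 89.6, 91.7, 89.6 and 89.8 CPM. These samples did not overlap, and the difference of 0.25 ± 0.07 passed (adjusted p = 0.00468), though not without any 1 of the replicates (adjusted p from 0.0103 to 0.0732).

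The rhythm of *Csnk1d* in WT BAT, highest at ZT 10, had an amplitude of 0.25 ± 0.09 (adjusted p = 0.00302). It was lost without replicate 1, 3 or 4 (adjusted p = 0.016, 0.0781 and 0.0179) and with library size alone (0.0323). In FANKO BAT the amplitude was 0.15 ± 0.06 (adjusted p = 0.346), and the difference in rhythm did not pass (adjusted p = 0.52).

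*Csnk1e* (ENSMUSG00000022433, chromosome 15, 79417856 to 79455566, reverse strand) was higher in FANKO eWAT, by 0.21 ± 0.05 (adjusted p = 0.000238), but at -0.03 (adjusted p = 0.671) with library size alone. Without replicate 3 it was 0.14 (adjusted p = 0.0446). In BAT the difference was 0.01 ± 0.05 (adjusted p = 0.848). The eWAT samples ranged from 29.2 to 39.6 CPM in WT and from 35.6 to 47.2 CPM in FANKO mice, so the ranges over the day overlapped. In WT BAT *Csnk1e* was highest at ZT 18, with an amplitude of 0.46 ± 0.12 (adjusted p = 0.00173), and this rhythm was lost without replicate 2 or 4 (adjusted p = 0.0323 and 0.0614) and with library size alone (0.186). The antisense gene Gm16059 covers 4.05% of its exonic bases.

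*Fbxl21* (ENSMUSG00000035509, chromosome 13, 56522472 to 56537898, forward strand) was near the limit of what this depth can measure, with 7 to 53 reads per sample and 0.325 to 0.385 RPKM on average in the 4 combinations. In WT eWAT it was 1.80, 1.73, 2.59 and 2.13 CPM at ZT 6, 2.90, 2.31, 1.69 and 2.20 at ZT 10, 1.56, 1.58, 1.61 and 0.982 at ZT 18, and 1.13, 1.49, 0.826 and 1.56 at ZT 22. The lowest light-phase sample (1.69 CPM) lay above the highest dark-phase sample (1.61 CPM), and the rhythm passed (amplitude 0.81 ± 0.24, adjusted p = 0.00721). It was lost without replicate 1, 3 or 4 (adjusted p = 0.0927, 0.0454 and 0.0384) and without the WT libraries of replicate 4 at ZT 18 (0.0111). In FANKO eWAT the samples ranged from 0.794 to 2.16 CPM with no rhythm called (adjusted p = 0.724), and a difference between the genotypes was not detected (adjusted p = 0.0593). Mean levels did not differ by the threshold in either depot (-0.25 ± 0.13 in BAT and -0.06 ± 0.12 in eWAT, adjusted p = 0.0777 and 0.712).

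**Figure D3:**
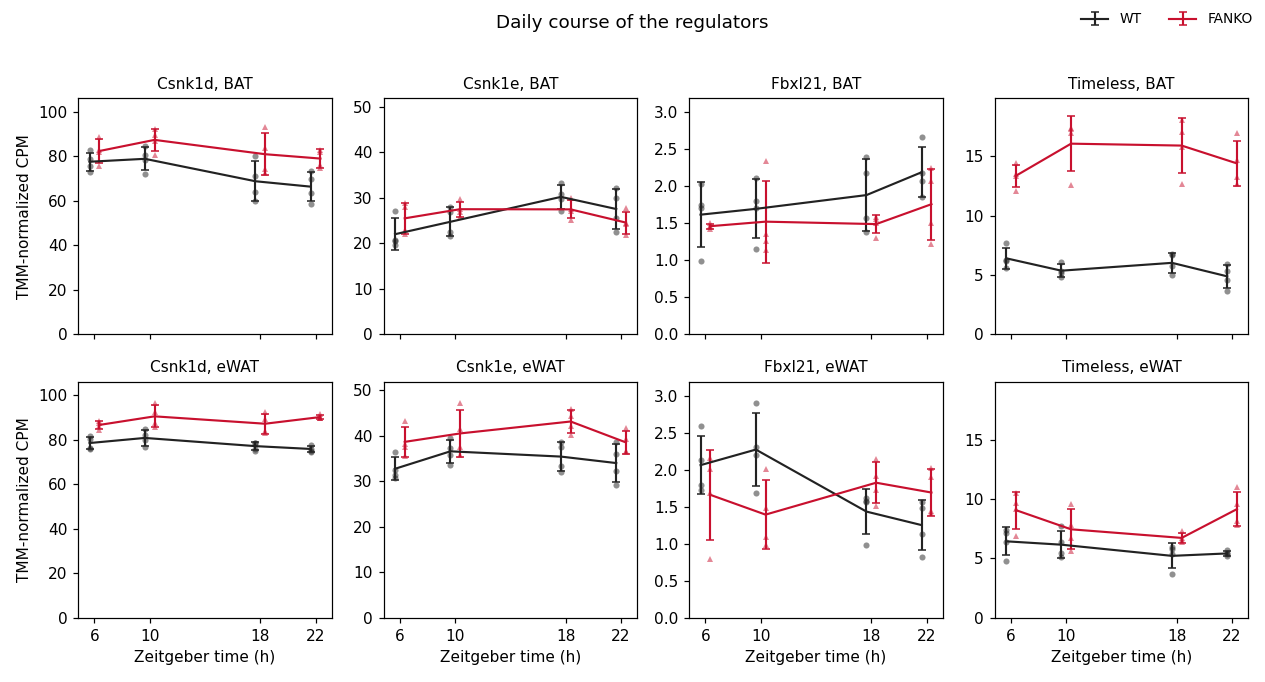
Daily course of *Csnk1d*, *Csnk1e*, *Fbxl21* and *Timeless* in BAT (upper row) and eWAT (lower row), in TMM-normalized CPM against zeitgeber time in hours, drawn as for the *Per* and *Cry* genes (single samples, means of 4 samples and SD bars). *Timeless* in FANKO BAT lies between 12.1 and 18.1 CPM, above all WT BAT samples, which end at 7.65 CPM.

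*Timeless* (ENSMUSG00000039994, chromosome 10, 128232065 to 128252941, forward strand) had the largest rise of the 9 genes in BAT. In WT BAT the samples held 6.14, 7.65, 6.24 and 5.58 CPM at ZT 6, 4.82, 6.13, 5.13 and 5.37 at ZT 10, 5.72, 6.65, 6.73 and 4.98 at ZT 18, and 5.34, 4.60, 3.68 and 5.92 at ZT 22. In FANKO BAT they held 14.4, 12.1, 13.5 and 13.3 CPM at ZT 6, 17.2, 16.9, 17.4 and 12.6 at ZT 10, 15.7, 18.1, 17.1 and 12.7 at ZT 18, and 14.7, 16.9, 12.7 and 13.2 at ZT 22. The genotypes were apart at every time point, with a FANKO mean from 2.07 times (ZT 6) to 2.93 times (ZT 10) the WT mean, and the mean level rose by 1.38 ± 0.08 (adjusted p = 3.49e-23).

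In eWAT *Timeless* ranged from 3.68 to 7.70 CPM in WT mice (time-point means 5.22 to 6.44) and from 5.64 to 11.0 CPM in FANKO mice (time-point means 6.73 to 9.15). The ranges overlapped over the day, and the mean level rose by 0.47 ± 0.08 (adjusted p = 7.85e-07), which was lost with library size alone (0.23, adjusted p = 0.0171). ZT 22 (0.77 ± 0.16, adjusted p = 0.000103) and ZT 6 (0.51 ± 0.15, adjusted p = 0.00733) passed, and the latter was lost without replicate 1, 2 or 3 (adjusted p from 0.0247 to 0.0968) and with DESeq2 (0.016). The rise was smaller in eWAT than in BAT by 0.91 ± 0.11 (adjusted p = 2.08e-10). No rhythm was called in any combination (adjusted p from 0.0352 in FANKO eWAT to 0.916 in WT BAT).

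In BAT replication and cell cycle genes rose in FANKO mice, as *Timeless* did. Of 18 such genes, 16 rose in FANKO BAT and 0 fell, where 33.1% of all genes rose, with a median difference of 2.12. The examples with the smallest p were *Mcm6* (2.14 ± 0.09, adjusted p = 7.1e-29), *Mcm3* (1.74 ± 0.10, 3.68e-24) and *Mcm2* (1.66 ± 0.09, 1.03e-23), subunits of the replicative helicase, and *Top2a* (3.98 ± 0.24, 2.28e-22), a topoisomerase of dividing cells. In eWAT 6 rose and 1 fell (27.6% of all genes rose and 22.8% fell), with a median difference of 0.37. There *Tipin*, the partner of *Timeless*, rose by 0.37 ± 0.05 (adjusted p = 2.17e-08) and *Pcna*, the sliding clamp of DNA polymerases, by 0.38 ± 0.06 (3.63e-08). With library size alone 0 rose and 1 fell in eWAT (2389 and 8592 of all 20249 genes). Between depots of WT mice 15 of the 18 were higher in eWAT and 0 lower (41.1% of all genes were higher), with a median difference of 1.26, whereas *Timeless* differed by 0.02 (adjusted p = 0.842). The summed level of the 18 genes ran from 87.5 to 115 CPM in BAT of WT mice and from 177 to 344 CPM in BAT of FANKO mice, and in eWAT from 120 to 230 and from 144 to 249 CPM. The sums of macrophage and lymphocyte genes moved alongside in BAT, while those of macrophage genes overlapped in eWAT (551 to 847 CPM in WT and 527 to 897 CPM in FANKO mice). The part of these cells in the level of *Timeless* was not tested.

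**Figure D4:**
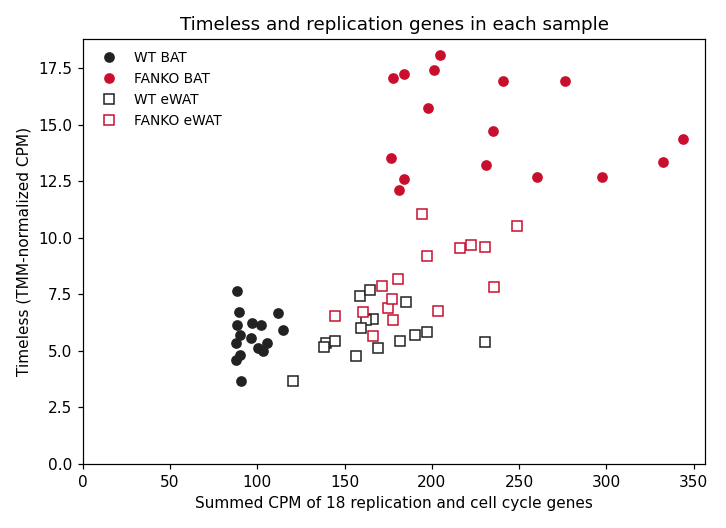
*Timeless* in TMM-normalized CPM (vertical axis) against the summed CPM of 18 replication and cell cycle genes (horizontal axis), 1 symbol per sample (filled circles BAT, open squares eWAT; black WT, red FANKO). The 16 FANKO BAT samples lie apart from the other 48 on the vertical axis at 12.1 CPM or more, while WT eWAT reaches sums of 230 CPM with *Timeless* at no more than 7.70 CPM.

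Of the 9 genes, 3 rose and 2 fell in FANKO BAT in mean level, and 4 rose and 2 fell in FANKO eWAT. These counts stand against 67% of all genes called in BAT (33.1% higher and 33.9% lower) and 50.3% in eWAT, so being called does not set these genes apart. The median difference of the 9 genes was 0.01 in BAT and 0.13 in eWAT, and that of all genes was 9.69e-05 and -0.02. The labels number 4 samples per group without naming the mouse. These p-values set each difference against the variation between samples, as estimated from a fit to all 64 samples of both depots. Mitochondrially encoded RNA made up 24.6% of counts in WT BAT and 14.7% in FANKO BAT (medians), with median TMM factors of 0.740 and 1.08. With library size as the sole scaling the median of all genes moved to 0.58 in BAT and -0.27 in eWAT. The 9 genes then split into 6 higher and 1 lower in BAT (12785 and 2274 of all 20249 genes). In eWAT they split into 1 higher and 3 lower (2389 and 8592 of all genes). At single time points 4, 3, 4 and 4 of the 9 genes were called in BAT at ZT 6, ZT 10, ZT 18 and ZT 22 (48.2%, 45.7%, 44% and 45.3% of all genes) and 3, 1, 1 and 3 in eWAT (27%, 24.5%, 13.6% and 20.6%). Relative to the median with library size alone *Per3* was at -1.52 and *Timeless* at 1.39 in BAT, close to their values under TMM.

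**Figure D5:**
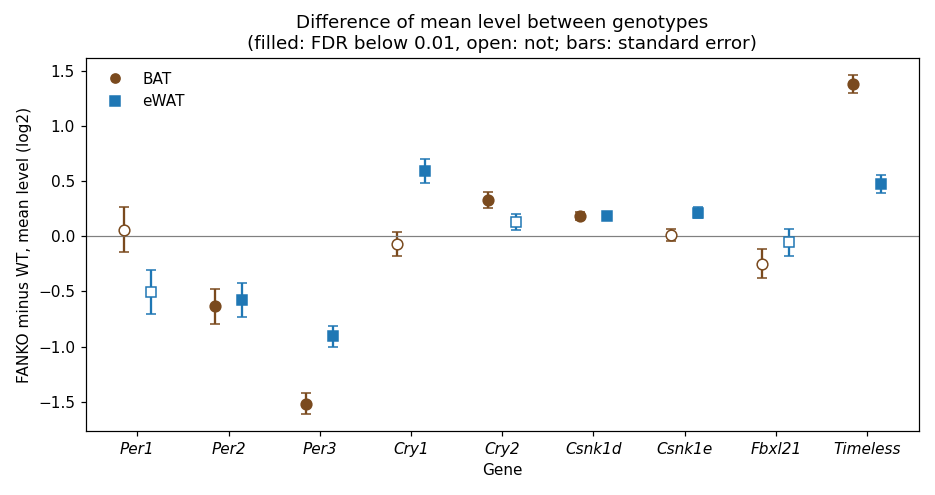
FANKO minus WT difference in mean level over the day (log2) for each of the 9 genes in BAT (circles) and eWAT (squares), with standard errors from the edgeR fit to 64 samples; filled symbols passed an FDR below 0.01. *Per3* is lowest in both depots (-1.52 and -0.91) and *Timeless* highest in BAT (1.38), while the eWAT values of *Csnk1d* and *Csnk1e* turn to -0.06 and -0.03 with library size as the sole scaling.

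Between depots of WT mice, 6 of the 9 genes differed in mean level, 5 higher and 1 lower in eWAT (73.7% of all genes, 41.1% higher and 32.7% lower). In eWAT *Per1* was higher by 0.58 ± 0.20 (adjusted p = 0.00775), *Per2* by 0.45 ± 0.15 (0.00621), *Csnk1e* by 0.42 ± 0.05 (1.39e-10), *Cry2* by 0.39 ± 0.07 (1.46e-06) and *Csnk1d* by 0.10 ± 0.03 (0.00575), where the median of all genes was 0.11. *Cry1* was lower by 0.48 ± 0.11 (7.03e-05), but at 0.27 with library size alone, where the median of all genes was 0.86. *Per3* (0.04 ± 0.09) and *Timeless* (0.02 ± 0.08) had nearly the same mean in both depots of WT mice (adjusted p = 0.679 and 0.842). The calls of *Per1*, *Per2* and *Csnk1d* were lost without replicate 1 or 2, and that of *Per1* without replicate 3 too (adjusted p from 0.0145 to 0.0774). For the daily courses of WT mice edgeR called 0 of the 9 genes different between depots (6.98% of all genes). An unadjusted p under 0.05 was found for 4, and the share of all genes under that value was not counted. The lowest adjusted p were 0.0111 for *Fbxl21*, which passed with DESeq2 (0.005) and limma-voom (0.00718), 0.0325 for *Cry2*, which passed without the WT libraries of replicate 4 at ZT 18 (0.00536), and 0.0478 for *Per2*.

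In FANKO mice 5 of the 9 genes differed between depots, 4 higher and 1 lower in eWAT (59.7% of all genes, 31.6% higher and 28.1% lower). *Per3* was 0.65 ± 0.09 higher in eWAT (adjusted p = 1.55e-08) and *Timeless* 0.89 ± 0.08 lower (1.2e-15), the genes whose depot means had been alike in WT mice. *Csnk1e* was 0.62 ± 0.05 higher (2.18e-16) and *Per2* 0.51 ± 0.16 higher (0.00315), the latter not called with RLE factors (0.43, adjusted p = 0.0112). *Csnk1d* was 0.11 ± 0.03 higher (0.00572), which was lost with RLE factors (0.03, adjusted p = 0.471), and *Cry1* was not called (0.18 ± 0.10, adjusted p = 0.122). These comparisons share their samples with the genotype comparisons and are not independent of them.

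Per kilobase, *Csnk1d* was followed in WT BAT by *Per3* (10.4 ± 5.81 RPKM), *Cry1* (8.35 ± 5.53), *Cry2* (6.69 ± 2.00), *Per2* (5.11 ± 3.26), *Csnk1e* (3.97 ± 0.671) and *Per1* (3.90 ± 2.84), whose neighbours in this order overlapped in range, and by *Timeless* (0.927 ± 0.156) and *Fbxl21* (0.385 ± 0.0917), which did not overlap each other (SD over 16 samples, time of day included). In FANKO BAT the order changed: *Cry2* (8.27 ± 1.41 RPKM) came next without reaching *Csnk1d*, and *Per3* (3.54 ± 1.84) came after *Per1* (3.88 ± 2.15). *Timeless* (2.44 ± 0.343) overlapped *Per2* (3.02 ± 1.42) above it and not *Fbxl21* (0.325 ± 0.0738) below it. In eWAT *Per3* came next to *Csnk1d* in WT mice (11.6 ± 8.06) and after *Csnk1e* (6.11 ± 0.559) in FANKO mice (6.03 ± 4.16).

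Other genes that act on PER and CRY proteins moved in opposite directions in the depots. The list of 25 held subunits of SCF and CUL4 ubiquitin ligases, casein kinase 2, GSK3 and AMPK subunits, phosphatases and deubiquitinases among others. In FANKO BAT 20 fell and 0 rose (33.9% of all genes fell), with a median difference of -0.35, and in FANKO eWAT 14 rose and 0 fell, with a median of 0.17 (27.6% of all genes rose). These directions depend on the scaling. With library size alone 15 rose and 4 fell in BAT (12785 and 2274 of all 20249 genes). In eWAT 4 rose and 10 fell with it (2389 and 8592 of all genes). Relative to the median of all genes the list stayed at -0.35 in BAT and 0.20 in eWAT. With TMM scaling stromal progenitor genes moved the other way in both depots. Of 7 adipocyte genes, 7 fell in FANKO BAT (median -0.86), and in FANKO eWAT 2 rose and 3 fell (median -0.14). The part of these and other cell types in the list was not tested. In BAT *Cul4a* fell by 0.72 ± 0.03 (adjusted p = 3.17e-27) and *Csnk2a1*, a catalytic subunit of casein kinase 2, by 0.75 ± 0.04 (7.67e-27). The deacetylase gene *Hdac3* fell by 0.84 ± 0.04 (1.08e-26) and *Ddb1*, the adaptor of CUL4 ligases, by 0.46 ± 0.04 (1.16e-17). In eWAT *Prkaa2*, a catalytic subunit of AMPK, rose by 1.23 ± 0.08 (2.6e-21), the F-box gene *Fbxw11* by 0.37 ± 0.03 (5.93e-15) and the phosphatase genes *Ppp1cb* and *Ppp1ca* by 0.51 ± 0.05 and 0.55 ± 0.06 (2.18e-13 and 2.16e-12).

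Of the same 25 genes, 9 were rhythmic in BAT of WT mice and 3 in that of FANKO mice (13.9% and 2.84% of all genes), and 5 and 4 in eWAT (9.38% and 6.77%). *Ciart*, a repressor of CLOCK and BMAL1, was rhythmic in all 4 combinations (adjusted p from 6.02e-14 in WT eWAT to 8.17e-05 in FANKO BAT), as was *Usp2*, a deubiquitinase, with adjusted p = 9e-06 and 0.00615 in BAT of WT and FANKO mice and 0.000219 and 2.7e-06 in eWAT. Rhythm differed between genotypes for 1 of the 25 in each depot (2.76% of all genes in BAT and 1.15% in eWAT), *Prkaa1* in BAT (adjusted p = 0.0039) and *Btrc*, the F-box protein that marks PER for destruction, in eWAT (adjusted p = 0.000811).

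Among the 9 genes, the courses over the 16 centred time-point means were most alike for *Per1* and *Per3* (Pearson r = 0.891), *Per1* and *Csnk1d* (0.786) and *Cry1* and *Cry2* (0.780), and most opposed for *Per3* and *Cry1* (-0.698). *Per2* lay between them, with r = 0.512 to *Per1*, 0.545 to *Per3* and 0.065 to *Cry1*. For *Per1* the closest of all genes were *Ddit4* (r = 0.940), *Ciart* (0.932) and *Avpi1* (0.928), and for *Cry2* they were *Zdhhc14* (0.958), 2010111I01Rik (0.933) and *Hps6* (0.923). For *Csnk1d* they were *Arsg* (0.950), *Gnl1* (0.947) and *Fnip1* (0.946), for *Csnk1e* *Ccdc80* (0.886), *Tbc1d16* (0.886) and *Otud7b* (0.879), and for *Fbxl21* *Hexdc* (0.869), *Ldb2* (0.854) and *Krba1* (0.851). These are descriptions over 16 means from shared libraries, chosen as the highest of many genes.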

How the data were processed

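Total RNA was depleted of ribosomal RNA, made into stranded libraries and sequenced in pairs by the authors, who aligned reads with STAR 2.5.3a and deposited raw counts per gene from featureCounts 1.5.3 (per the labels, GRCm38.p5; quality by FastQC 0.11.5 and MultiQC 1.2). The strand and multimapping options of the counting are not given in the sources used here. The 64 samples were grouped by the labels, and no column was left out. Counts were scaled by TMM in edgeR 4.0.16 (R 4.3.3). The filterByExpr filter (count of 10 or more, total of at least 15) set aside 32387 of 52636 genes. A quasi-likelihood fit to all samples held a mean, a cosine and a sine of 24 h for each depot and genotype, and a second fit held the 16 group means. Rhythm, mean level, time point and depot were tested at a Benjamini-Hochberg FDR below 0.01 over all genes. Log2 CPM used a prior count of 2, and RPKM used the exonic length of GENCODE M21. The scripts were tested on simulated data. Alternatives were RLE factors, library size alone, other filters, DESeq2 1.42.0, limma-voom 3.58.1, robust dispersion, a fit per depot, a replicate block, time as a factor, an FDR of 0.05 and each replicate left out. Leaving out the WT libraries of replicate 4 at ZT 18 was chosen after seeing the data. Depth, from 6117343 to 30544847 counts per sample, limits *Fbxl21* most.

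The 9 genes and the gene lists were chosen with earlier results of these data known. The genes named beyond the 9 were up to 4 past the threshold with the smallest p for each list and comparison, and the 3 of highest r (mean log2 CPM of at least 1) for each rhythmic gene. Some genes under this rule are not reported here.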

Additional observations from a re-analysis of the deposited data

Results flagged for a closer look

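In 13 of 144 groups of 4 samples, 1 sample lay far from the other 3, where chance gives about 1 in 20 groups. *Per1* was 52.5 CPM in WT BAT at ZT 18 (replicate 4, the others 8.45 to 9.16), 4.60 in WT BAT at ZT 22 (replicate 2, the others 9.70 to 10.6) and 8.76 in FANKO BAT at ZT 18 (replicate 3, the others 11.2 to 11.3). *Per2* was 76.2 CPM in WT eWAT at ZT 18 (replicate 4, the others 36.7 to 37.9) and 62.0 in FANKO eWAT at ZT 10 (replicate 1, the others 31.6 to 32.3). *Cry1* was 14.7 CPM in FANKO BAT (the others 17.0 to 17.5) and 9.09 in WT eWAT (the others 11.4 to 11.6), both at ZT 10 in replicate 4. *Cry2* was 32.4 CPM in WT BAT at ZT 22 (replicate 4, the others 45.0 to 47.2) and 34.9 in FANKO BAT at ZT 10 (replicate 2, the others 46.0 to 47.7). *Csnk1d* was 91.7 CPM in FANKO eWAT at ZT 22 (replicate 2, the others 89.6 to 89.8), *Csnk1e* was 27.2 in WT BAT at ZT 6 (replicate 1, the others 19.7 to 20.7), *Fbxl21* was 0.982 in WT eWAT at ZT 18 (replicate 4, the others 1.56 to 1.61) and *Timeless* was 12.6 in FANKO BAT at ZT 10 (replicate 4, the others 16.9 to 17.4).

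The genotype difference in mean level differed between depots for 3 genes by the interaction test. In eWAT it was higher than in BAT by 0.66 for *Cry1* and by 0.61 for *Per3*, and for *Timeless* it differed by -0.91. The causes were not tested.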

How the results depend on the processing

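Of 348 counts of called genes over all comparisons and alternatives, 319 stayed within 1.5 times the reported count. Of 765 values of single genes that had been called, 707 stayed called in the same direction, 53 were lost and 5 turned, all 5 with library size as the sole scaling: *Csnk1d* and *Csnk1e* between genotypes in eWAT (-0.062 and -0.034), *Cry1* between depots of WT mice (0.27), and the interactions of *Per3* (-0.22) and *Cry1* (-0.18). With that scaling 6 genes were called at ZT 10 in BAT (10598 of all 20249 genes), 2 at ZT 10 in eWAT (4845) and 3 between depots of FANKO mice (11410). For the interaction of depot and genotype 7 were called with it (15247 of all genes). With RLE factors 3 were called between depots of FANKO mice (12155 of all genes). Rhythmic genes in FANKO eWAT numbered 5 with limma-voom (1469 of all 20249 genes) and 5 in a fit per depot (1334 of 19059). They numbered 5 without the WT libraries of replicate 4 at ZT 18 (1683 of 20667) and 6 at an FDR below 0.05. With time point as a factor 1 gene changed its rhythm between genotypes in eWAT (149 of all 20249 genes). For the difference in rhythm between depots of WT mice, 1 gene was called with a filter of CPM above 1 (1462 of 18250 genes). The same count came with DESeq2 (1801 of 20249), with limma-voom (1387) and without those ZT 18 libraries (1725 of 20667). At an FDR below 0.05 there were 3. At that FDR 3 genes passed at ZT 10 and 2 at ZT 18 in eWAT. Shares of all genes at that FDR are not given here. Leaving out 1 replicate gave 1 to 3 rhythmic genes in FANKO BAT (168 to 478 of all genes) and 3 to 4 in WT eWAT (768 to 1955). It gave 1 to 3 genes at ZT 22 in eWAT (2596 to 3489 of all genes). Between depots it gave 3 to 6 in WT mice (13772 to 14421 of all genes) and 3 to 5 in FANKO mice (10869 to 11259). The causes were not tested. Of the amplitude differences, that of *Timeless* in BAT moved to 0.31 with the fitted cosine.

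Whether equal replicate numbers mark one mouse is not given, and they were not treated as pairs. The rule asked that every correlation of deviations exceed 0.1, which true pairs can fail, so it does not settle whether they are pairs. The correlation exceeded 0.1 for 10 of 32 same-numbered pairs of depots (median 0.0527) against 5 of 96 with other numbers (-0.0214). For genotypes, where a pair cannot be 1 mouse, it did so in 6 of 32 same-numbered pairs (0.0517) against 6 of 96 (-0.0196). In eWAT at ZT 22 mitochondrially encoded RNA rose from replicate 1 to replicate 4, from 3.88% to 10.6% in WT and from 6.11% to 14.3% in FANKO mice. At ZT 10 in WT eWAT it was 6.80%, 4.97%, 7.74% and 8.49%, without a steady rise. Whether the number marks something other than a mouse is not given in the labels and was not tested. If the numbers mark mice, the p-values between depots treat linked samples as independent. A replicate block gave 5 rhythmic genes in FANKO eWAT (1472 of all 20249 genes) and 2 called genes at ZT 10 in eWAT (5147). The block of depots in limma-voom gave 1 gene for the difference in rhythm between depots of WT mice (1626 of all genes).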
